A study of Mus musculus with 14 samples.

Results

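The hippocampus of lupus-prone mice was compared with control hippocampus, with the status of the kinase IRAK4 held in the same model. By that rule 13 of the 14 libraries entered, 8 of lupus background and 5 controls, and 37711 of 55536 annotated genes had enough counts to be tested. The lupus background comprised 4 MRL and 4 MRL-IRAK4-KD mice, and the controls were 3 C57BL6/J and 2 IRAK4-KD mice. MRL stands here for B6.MRL-Fas lpr/J, in which the lpr allele of Fas is carried on C57BL/6. MRL-IRAK4-KD mice carry that allele and a kinase-dead IRAK4, and IRAK4-KD mice carry the kinase-dead IRAK4 alone. All mice were 10 months old, none is labelled as treated, and each library is 1 sample of hippocampus from a perfused brain. A further IRAK4-KD library, replicate 3, was left out because its Fas counts go against its label. The C57BL6/J mice were purchased while the other strains came from one laboratory, so that source and background cannot be told apart among the IRAK4-intact mice, whereas both kinase-dead groups shared a source.

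Fas is a death receptor through which activated lymphocytes are removed, and the lpr allele disrupts its transcript by a retroviral insertion within an intron. Mice with this allele accumulate lymphocytes and autoantibodies and are used as a model of systemic lupus, including its neuropsychiatric form. IRAK4 relays signals from Toll-like receptors and the IL-1 receptor through the Myddosome, a complex built on Myd88, and type I interferon programmes are a known feature of lupus.

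The libraries held between 279723718 and 571925600 counts on Ensembl genes, and the deepest control, at 401131487, lay below 6 of the 8 lupus-background libraries. MRL-IRAK4-KD replicate 4 stood apart from the other 12. It lay at 112 on a first principal component that carried 51.8% of the variance, where the others lay between -21.1 and 4.34, and its RNA input on the sequencing core's sheet was 27.4 against 39.6 to 43.7. For many lists the value without it is given as well. Xist had at least 90185 counts in every library and the Y-linked Ddx3y had 0. The dentate granule cell gene Prox1, a hippocampal marker, lay between 55.8 and 124 CPM in all 13 libraries, where CPM are counts scaled to a common library total with TMM factors.

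The mutated genes were examined first. Fas (ENSMUSG00000024778.13) spans bases 34290666 to 34327772 of chromosome 19 in mm10. Over the whole gene it averaged 1.38 ± 0.502 CPM (SD, n = 4) for MRL mice and 0.958 ± 0.191 (n = 4) in MRL-IRAK4-KD, against 1.31 ± 0.259 (n = 3) in C57BL6/J and 0.947 ± 0.0523 (n = 2) in IRAK4-KD. Its log2 fold change was 0.05 ± 0.20 (SE), with an edgeR adjusted p of 0.984. Its transcripts separated the backgrounds where the gene did not. The full-length coding transcript Fas-201 had 0 counts in all 8 lupus-background libraries, a limit of 3 counts each, and between 345 and 584 in the 5 controls. Fas-204, annotated as a target of nonsense-mediated decay, had between 268 and 964 counts in lupus background and at most 7 in the controls. IRAK4-KD replicate 3 had 0 counts of Fas-201 and 514 of Fas-204, as in the lupus background and against its label. Irak4 (ENSMUSG00000059883.16, chromosome 15, 94543643 to 94581815) lay between 1.53 and 2.72 CPM in lupus background and between 1.81 and 2.53 CPM in the controls, and such a count cannot reveal whether the kinase is active.

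Next, all genes were compared between the backgrounds. In the lupus background the genes with the smallest p were mostly higher, by 1.31- to 2.78-fold, and the clock output gene Dbp and the interferon regulator Irf7 were among the first 3. None of them passed the adjusted test on all 13 libraries. edgeR's quasi-likelihood test called 0 of 37711 genes at an adjusted p of 0.05 (0%), the lowest adjusted p being 0.251. At an unadjusted p below 0.05 stood 2966 genes (7.87%), of which 1580 were higher (4.19%) and 1386 lower (3.68%) in lupus background. Scaling by library size alone gave 1097 higher and 1922 lower genes and shifted the median log2 fold change of all genes from -0.0028 to -0.06, so the balance of directions depended on the scaling. The 8 lupus-background and 5 control values did not overlap for 218 genes (0.578%), 128 of them higher (0.339%) and 90 lower (0.239%).

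The number of calls turned on 1 library and on the tool. Without MRL-IRAK4-KD replicate 4, edgeR called 30 of 37453 genes (0.0801%), 19 higher and 11 lower, and 5294 genes had an unadjusted p below 0.05. With all 13 libraries, limma-voom with sample quality weights called 18 of 37711 (0.0477%), giving that library a weight of 0.0815 where the others had 0.618 or more. DESeq2 called 294 of the 26839 genes it gave an adjusted p (1.1%), 190 higher and 104 lower. The 30 genes called without the library shared 16 with DESeq2's calls and 12 with those of limma-voom, and 10 genes were common to all 3.

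**Figure D1:**
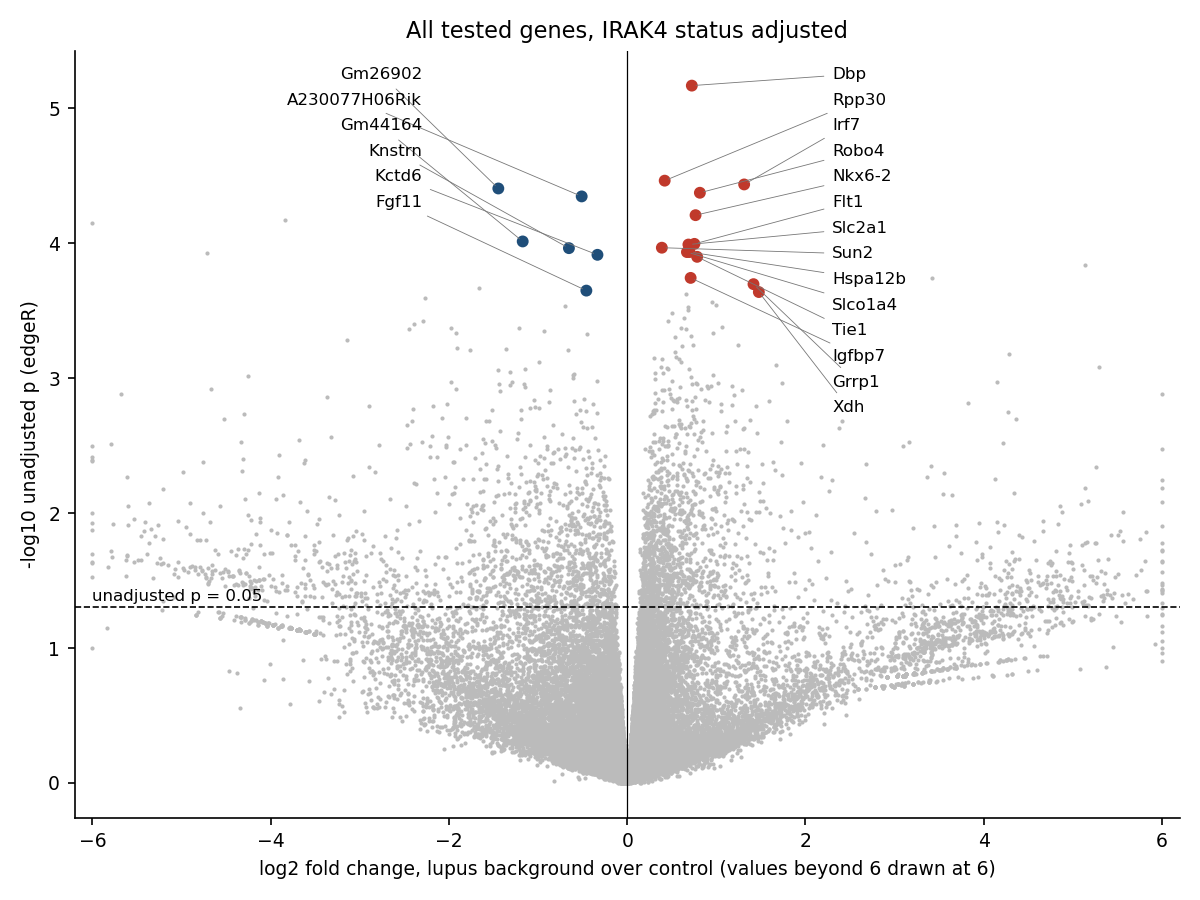
Each point is a gene, with the log2 fold change of lupus background over control on the x axis and the -log10 of edgeR's unadjusted p on the y axis. The 20 labelled genes have the smallest p among genes with a mean of at least 0.5 CPM, 14 of them higher (red) and 6 lower (blue), and none passed an adjusted p of 0.05.

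The comparison was then made within each IRAK4 state, where the 2 tests share no library. Among IRAK4-intact mice (4 MRL against 3 C57BL6/J) 0 of 35373 genes were called and 3174 had an unadjusted p below 0.05 (8.97%). Among kinase-dead mice (4 MRL-IRAK4-KD against 2 IRAK4-KD) 0 of 34325 were called and 758 had such a p (2.21%), which became 36 called and 3115 without MRL-IRAK4-KD replicate 4. Of 3030 genes with an unadjusted p below 0.05 in the intact mice, 66.4% had the same sign in the kinase-dead mice, beside 55.1% of all 33237 genes measured in both. Without MRL-IRAK4-KD replicate 4 these shares were 79.7% of 3017 genes and 62.9% of 32906 genes. They are shares across genes, which are not independent of each other. The difference between the 2 background effects was tested as an interaction, which called 1 of 37711 genes (0.00265%), the mitochondrial tRNA gene mt-Tg, while 1099 had an unadjusted p below 0.05.

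The 20 genes with the smallest p had adjusted p between 0.251 and 0.319 in edgeR. DESeq2 called all 20, limma-voom 9 and edgeR without MRL-IRAK4-KD replicate 4 called 10. For 19 of them the exact permutation test gave 0.0019, the smallest p that its arrangements within the IRAK4 states allow. These p-values measure the spread between libraries, which may be technical, and were read after the genes had been ranked on the same values.

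Dbp (ENSMUSG00000059824.12, chromosome 7, 45705088 to 45710203) encodes a PAR bZIP transcription factor driven by the circadian clock. It had 27.9, 27.9 and 32.0 CPM in C57BL6/J and 34.5 and 39.3 CPM in IRAK4-KD, against a lowest value of 42.0, a median of 55.0 and a highest of 63.1 CPM over the 8 lupus-background libraries. The groups did not overlap, and the log2 fold change was 0.73 ± 0.10 (SE), 1.65-fold, with 0.82 in intact and 0.60 in kinase-dead mice. Of the 16 circadian clock genes, 2 were higher at an unadjusted p below 0.05, Dbp and the repressor Nr1d1 (log2 fold change 0.33 ± 0.10), and none was lower. The core period genes gave 0.39 for Per1, -0.06 for Per2 and -0.05 for Per3. The median of the list was 0.04, and -0.01 with library-size scaling, beside -0.0028 over all genes. It differed in sign between the IRAK4 states. In intact mice it was 0.26 with 15 of 16 genes positive, and in kinase-dead mice -0.17 with 5 positive. The kinase-dead median was -0.05 without MRL-IRAK4-KD replicate 4. Over both states the median was 0.11 without MRL-IRAK4-KD replicate 4. Then 4 clock genes had an unadjusted p below 0.05, beside 5294 of 37453 over all genes. The E-box CACGTG was found in the promoters of 5 of 14 clock genes with a promoter in the RefSeq table (35.7%), Per1 among them, beside 8.09% of all 27025 genes, and the windows of Dbp and Nr1d1 held no match. Times of dissection are not given in the sources used here.

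Irf7 (ENSMUSG00000025498.15, chromosome 7, 141262706 to 141266481) encodes the transcription factor that amplifies the type I interferon response. It had between 0.863 and 1.40 CPM in the 5 controls and a lowest value of 1.41, a median of 2.41 and a highest of 6.01 CPM in lupus background. The groups met without overlapping. In MRL the values were 2.73, 3.22, 2.99 and 6.01, all above the 1.41 to 2.1 CPM of MRL-IRAK4-KD. The log2 fold change was 1.31 ± 0.22 (SE), 2.48-fold, and 1.12 without the highest library, MRL replicate 4.

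**Figure D2:**
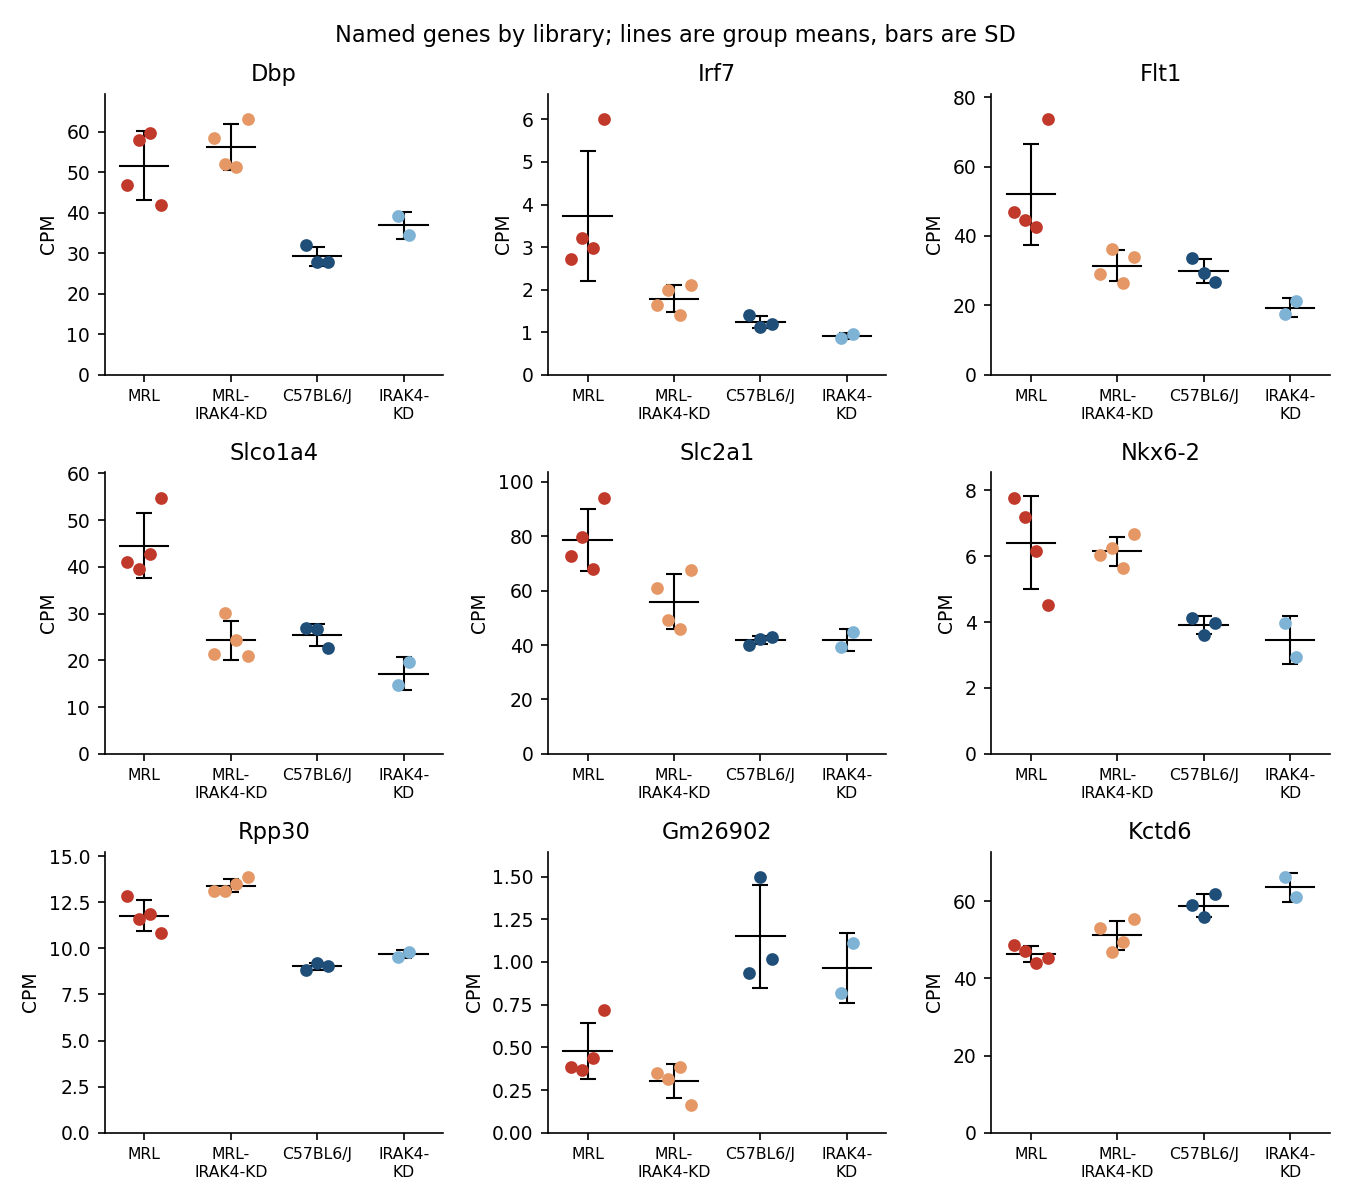
Each panel gives 1 gene in CPM on a linear y axis from 0, with a point per library, the group mean as a line and its SD as a bar. Dbp, Irf7, Slc2a1, Nkx6-2 and Rpp30 were higher in all 8 lupus-background libraries than in all 5 controls, Gm26902 and Kctd6 were lower in all 8, and for Flt1 and Slco1a4 the MRL-IRAK4-KD values overlapped those of C57BL6/J.

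Genes known from brain endothelium stood among the higher genes of the ranking, and 2 of the 20, Flt1 and Slco1a4, are in the endothelial marker list. Endothelial cells form the blood-brain barrier with tight junctions, selective transporters and receptors for angiogenic factors. Slc2a1, the glucose transporter of the barrier, had 39.1 to 44.9 CPM in controls and 46.0, 67.8 and 94.1 CPM as lowest, median and highest values in lupus background, with no overlap and a log2 fold change of 0.69 ± 0.13 (SE). Slco1a4, an organic anion transporter of the barrier, had 14.7 to 27.0 CPM in controls and 21.0, 34.9 and 54.7 CPM in lupus background, a log2 fold change of 0.67 ± 0.13. The VEGF receptor gene Flt1 had 17.4 to 33.8 CPM in controls and 26.6, 39.4 and 73.7 CPM in lupus background, a log2 fold change of 0.75 ± 0.14. For both Slco1a4 and Flt1 the 4 MRL values lay above all controls and the MRL-IRAK4-KD values did not, although they lay above both IRAK4-KD values. The endothelial receptors Robo4 and Tie1 had log2 fold changes of 0.82 ± 0.14 and 0.78 ± 0.15, the endothelial heat shock protein gene Hspa12b 0.70 ± 0.13 and the secreted vascular protein gene Igfbp7 0.71 ± 0.14. Among the higher genes of the 20, Xdh, encoding xanthine dehydrogenase, and Grrp1 had the largest differences, 1.48 ± 0.30 and 1.42 ± 0.28. Xdh reached 18.7 CPM in MRL replicate 4 against 3.30 to 7.40 in the other lupus-background libraries.

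In the endothelial marker list, which shares Lcn2 with the reactive astrocyte list, all 13 genes had a positive log2 fold change. Of these, 8 were higher and 0 lower at an unadjusted p below 0.05, 0 were called, and the median was 0.71. Over all genes the shares were 4.19% higher and 3.68% lower, which are the background for every list that follows. The median was 0.80 in intact and 0.26 in kinase-dead mice, the latter 0.42 without MRL-IRAK4-KD replicate 4. Without MRL replicate 4 the median over both states was 0.53 with 6 genes at that p. The tight junction gene Cldn5 gave 0.72 ± 0.19, the junction genes Pecam1 and Cdh5 0.67 ± 0.18 and 0.52 ± 0.33, and von Willebrand factor, Vwf, 1.21 ± 0.32. Summed over the list, MRL had 225, 199, 200.3 and 366 CPM, MRL-IRAK4-KD 132 to 161, C57BL6/J 125 to 154 and IRAK4-KD 102 and 116. MRL stood above the other groups, and MRL-IRAK4-KD overlapped C57BL6/J but not IRAK4-KD. In whole tissue, more endothelial cells and more RNA per cell cannot be told apart.

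Markers of blood stood high in 3 of the 4 MRL libraries, although the brains had been perfused. Of 12 blood and platelet genes, 5 were higher at an unadjusted p below 0.05 namely the haemoglobin genes Hbb-bs, Hbb-bt, Hba-a1 and Hba-a2 and the haem synthesis gene Alas2, and all 12 had a positive log2 fold change, with a median of 0.90. The median was 2.14 in intact and -0.45 in kinase-dead mice, where the endothelial median was positive. The haemoglobin gene Hbb-bs had 138, 48.1, 29.6 and 131 CPM in MRL, 18.8 to 48.8 in MRL-IRAK4-KD, 15.3 to 31.5 in C57BL6/J and 9.87 and 20.3 in IRAK4-KD. Its log2 fold change was 1.38 ± 0.42, beside 1.34 ± 0.41 for Hbb-bt and 1.48 ± 0.49 for Hba-a1. The list summed to 377, 162, 86.6 and 375 CPM in MRL, to 55.0 to 198 CPM in MRL-IRAK4-KD and to 32.0 to 96.4 CPM in the controls. MRL replicate 3 was thus within the control range for blood and above it for the endothelial list. Its part in the endothelial and interferon values was not tested.

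Interferon-inducible genes were the next group to stand high. Of 26 type I interferon-stimulated genes, 14 were higher and 1 lower at an unadjusted p below 0.05 and 0 were called, with a median log2 fold change of 0.55. The antiviral 2'-5' oligoadenylate synthetase gene Oas1a gave 1.24 ± 0.28 (SE), the deISGylase Usp18 0.79 ± 0.22, Ifi27l2a 1.18 ± 0.30 and the chaperone gene Rtp4 0.79 ± 0.19. The first members of the list behaved otherwise: Ifit1 gave 0.23 ± 0.23, Ifit2 -0.36 ± 0.20 and Ifit3 -0.87 ± 0.21. These 3 lie beside Fas on chromosome 19, and without the 4 members within 20 Mb of Fas the median was 0.61. The median was 0.69 in intact mice, 0.34 in kinase-dead mice and 0.39 without MRL replicate 4. The kinase-dead median was 0.23 without MRL-IRAK4-KD replicate 4.

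The interferon-inducible GTPases, which attack intracellular vacuoles, had the highest list median, 1.30, with 9 of 14 genes higher and 0 lower at an unadjusted p below 0.05 and 0 called. That value rested on 1 mouse. Gbp2 had 5.93, 4.99, 4.69 and 59.2 CPM in MRL, 3.61 to 3.84 in MRL-IRAK4-KD, 2.80 to 3.58 in C57BL6/J and 2.23 and 2.80 in IRAK4-KD. The guanylate-binding protein gene Gbp3 had 7.63, 7.40, 6.38 and 33.8 CPM in MRL, 1.64 to 4.88 in MRL-IRAK4-KD, 3.22 to 4.83 in C57BL6/J and 2.97 and 3.17 in IRAK4-KD. MRL replicate 4 was thus far above its group in both, while the other 3 MRL libraries still exceeded every control. The list summed to 466 CPM in MRL replicate 4, to 60.3 to 71.9 in the other MRL, 33.1 to 54.2 in MRL-IRAK4-KD and 31.4 to 50.4 in the controls. Without MRL replicate 4 the median was 0.51 and 9 genes had an unadjusted p below 0.05, and within the kinase-dead mice it was 0.40. Gbp4 gave 1.74 ± 0.81 and Gbp2 and Gbp3 gave 1.59 ± 0.64 and 1.07 ± 0.46. The Tgtp1 and Tgtp2 values are uncertain because these near-identical copies share reads.

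Antigen presentation through MHC class I followed the same order. All 16 genes had a positive log2 fold change, 10 were higher and 0 lower at an unadjusted p below 0.05, 0 were called and the median was 0.73. B2m, the invariant chain of class I molecules, had 115, 116, 92.4 and 182 CPM in MRL, 82.2 to 113 in MRL-IRAK4-KD and 71.1 to 75.2 in the 5 controls. Every lupus-background library lay above every control, and the log2 fold change was 0.58 ± 0.15. The class I heavy chain genes H2-K1 and H2-D1 gave 0.71 ± 0.24 and 0.78 ± 0.20. H2-D1 had 22.6 to 25.3 CPM in controls and 28.8, 33.6 and 84.9 CPM as lowest, median and highest lupus-background values, again without overlap. Class I heavy chains are similar in sequence, so their single values may share reads. The list median was 0.45 without MRL replicate 4, 0.96 in intact and 0.31 in kinase-dead mice. For MHC class II, 0 of 7 genes had an unadjusted p below 0.05, with 0.80 ± 0.57 for Cd74, 0.67 ± 0.50 for H2-Aa and 0.87 ± 0.52 for H2-Ab1. The class II median of 0.34 was 0.19 without MRL-IRAK4-KD replicate 4 and 0.12 without MRL replicate 4.

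The promoters of 4 of these genes are shown because they share a short interferon-response motif while the genes differ in direction. Each runs from 250 bases before to 50 after a RefSeq transcript start (GRCm38.p6), and capitals mark the motif, GAAA followed by NN (any bases) and again GAAA, on either strand, with overlapping matches allowed. Gbp2 (chr3:142620413-142620712, plus strand) and B2m (chr2:122147437-122147736, plus strand) held 1 match each. Gbp3 (chr3:142559794-142560093, plus strand) and Ifit3 (chr19:34583279-34583578, plus strand) held 2 each.
Gbp2: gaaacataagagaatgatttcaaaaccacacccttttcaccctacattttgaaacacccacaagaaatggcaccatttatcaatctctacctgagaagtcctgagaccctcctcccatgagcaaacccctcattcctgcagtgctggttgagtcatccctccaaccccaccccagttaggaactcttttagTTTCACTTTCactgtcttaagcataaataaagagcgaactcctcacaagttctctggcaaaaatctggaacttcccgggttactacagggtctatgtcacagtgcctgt
Gbp3: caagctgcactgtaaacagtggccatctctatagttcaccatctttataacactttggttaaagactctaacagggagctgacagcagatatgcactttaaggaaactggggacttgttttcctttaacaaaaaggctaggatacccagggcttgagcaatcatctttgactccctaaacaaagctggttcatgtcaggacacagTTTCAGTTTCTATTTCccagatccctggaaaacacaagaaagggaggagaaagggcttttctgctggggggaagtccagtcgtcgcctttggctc
B2m: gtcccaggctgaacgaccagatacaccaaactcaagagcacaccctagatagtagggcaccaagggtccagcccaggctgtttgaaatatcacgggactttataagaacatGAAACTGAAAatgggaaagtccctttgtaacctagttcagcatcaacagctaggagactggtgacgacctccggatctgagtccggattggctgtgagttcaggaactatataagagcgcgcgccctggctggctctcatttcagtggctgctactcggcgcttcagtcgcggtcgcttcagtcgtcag
Ifit3: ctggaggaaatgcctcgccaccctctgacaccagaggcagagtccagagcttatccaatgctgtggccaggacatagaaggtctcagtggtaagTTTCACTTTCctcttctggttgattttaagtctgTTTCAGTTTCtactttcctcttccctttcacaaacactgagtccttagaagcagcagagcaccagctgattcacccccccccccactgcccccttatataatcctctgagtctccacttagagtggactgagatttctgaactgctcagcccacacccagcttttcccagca
Gbp2, Gbp3 and B2m had positive and Ifit3 had a negative log2 fold change. These 4 were shown because they hold the motif. The windows of Irf7, Oasl2, Psmb8 and Tap1 were also read and held no match. Gbp3 has a further window (chr3:142560106-142560405, plus strand), which held no match either. The motif was found in 1079 of all 27025 genes with a promoter in the table (3.99%). It was found in 11 of 18 type I interferon-stimulated genes matched there (61.1%), in 9 of 10 GTPase genes and in 4 of 14 MHC class I genes (28.6%). A match describes these letters only.

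**Figure D3:**
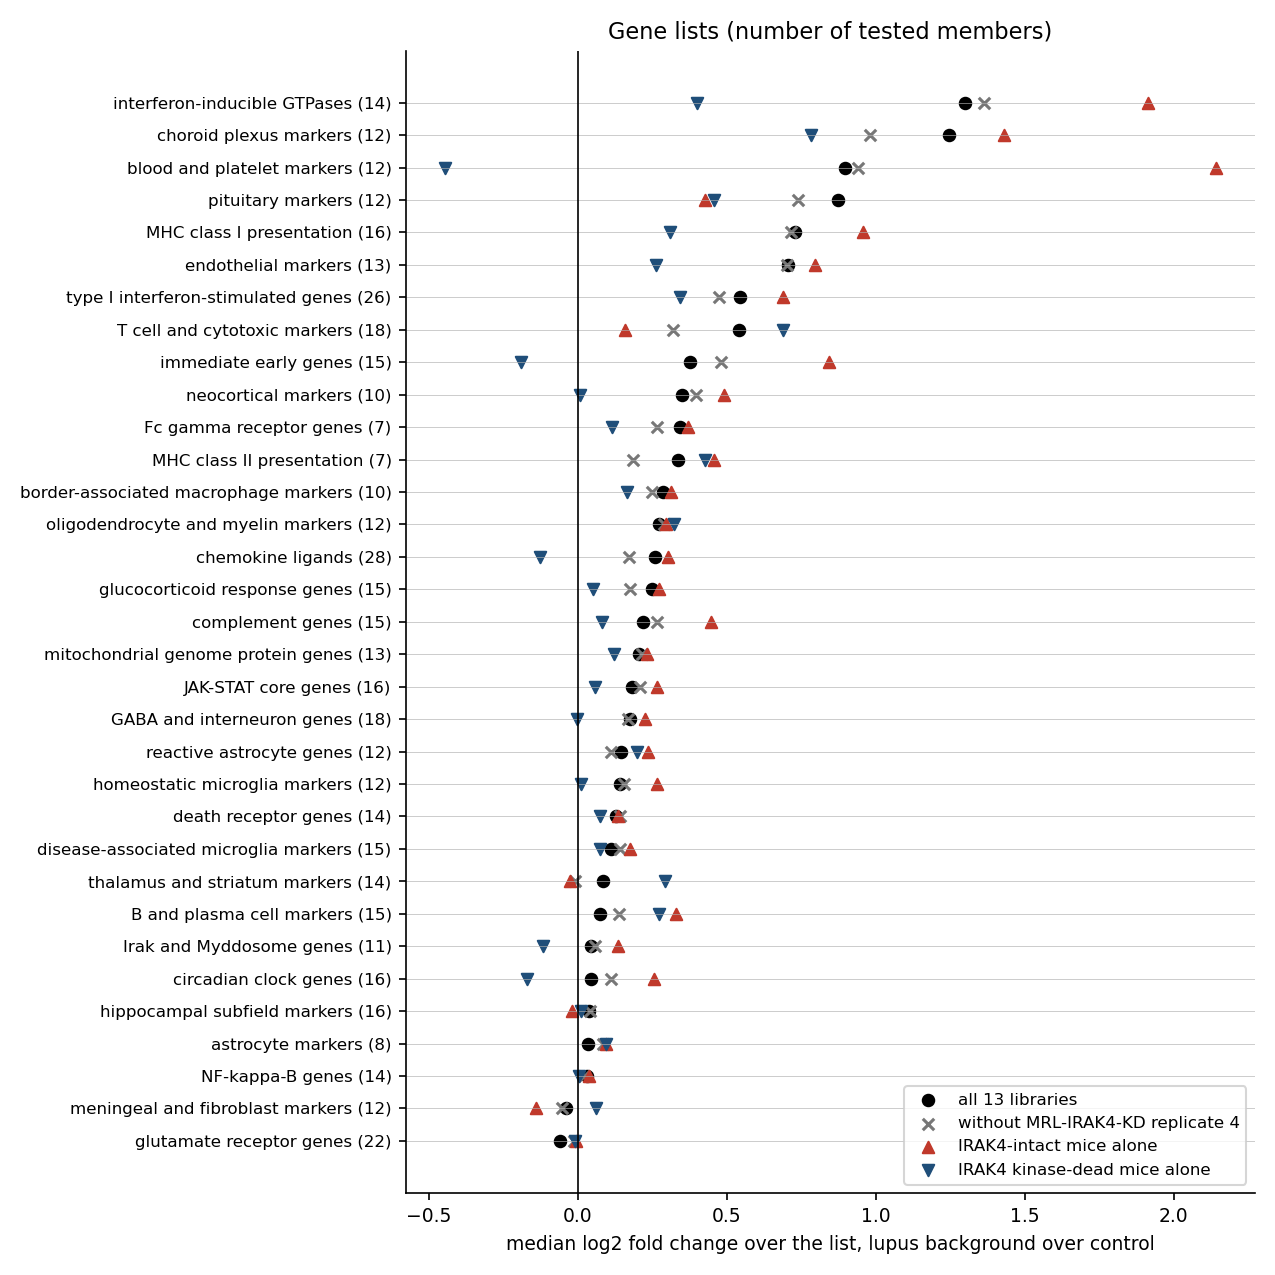
Each row is a gene list with its number of tested genes, and the x axis is the median log2 fold change of lupus background over control. Black circles use all 13 libraries, crosses leave out MRL-IRAK4-KD replicate 4, and triangles show IRAK4-intact (red, up) and kinase-dead mice (blue, down), whose medians for the GTPases were 1.91 and 0.40.

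Complement, Fc receptors and microglia differed by less. Here and for the lists that follow, members outside the first 3 of a list were named after their values were seen. Of 15 complement genes 3 were higher and 0 lower at an unadjusted p below 0.05, the chains of C1q, which tags synapses and debris: C1qa with 0.53 ± 0.17 (SE), C1qb with 0.61 ± 0.25 and C1qc with 0.51 ± 0.14. C1qa had 35.5 to 39.8 CPM in controls and 41.4 to 60.1 CPM in 7 lupus-background libraries, with 90.3 CPM in MRL-IRAK4-KD replicate 4, and no overlap. Of 12 homeostatic microglia markers, 5 were higher and 0 lower, with a median of 0.14, among them Cx3cr1, Tmem119, Csf1r and Aif1 (0.29 ± 0.13). The receptor gene Csf1r, on which microglia depend, had 72.7 to 75.8 CPM in controls and 81.3, 85.2 and 114 CPM in lupus background, without overlap and with a log2 fold change of 0.30 ± 0.08. Tmem119 gave 0.38 ± 0.11, Cx3cr1 0.19 ± 0.07 and P2ry12 -0.01 ± 0.14. Of 15 disease-associated microglia genes, 3 were higher and 0 lower (median 0.11), with Apoe at 0.38 ± 0.25, Trem2 at 0.44 ± 0.19 and Cst7 at -0.51 ± 0.33. The 3 were Trem2, the lysosomal protease Ctsd (0.27 ± 0.12) and the lysozyme Lyz2 (0.52 ± 0.18). One of 7 Fc gamma receptor genes was higher, Fcgr4, which reached 1.36 CPM in MRL replicate 4 and 0.0894 to 0.299 CPM in the other lupus-background libraries, with a log2 fold change of 1.23 ± 0.55 that was 0.64 without that library. Fcgr1, Fcgr2b and Fcgr3 gave 0.27 ± 0.15, 0.34 ± 0.19 and 0.26 ± 0.13. Of 10 border-associated macrophage markers 2 were higher, Cd163 with 0.42 ± 0.18 and Stab1 with 0.30 ± 0.12, beside 0.20 ± 0.23 for Mrc1 and 0.26 ± 0.32 for Lyve1. Without MRL-IRAK4-KD replicate 4, where genes at an unadjusted p below 0.05 went from 2966 to 5294 over all genes, 6 complement, 7 disease-associated microglia and 4 Fc gamma receptor genes had such a p. Without MRL replicate 4, 0 of the Fc gamma receptor, 0 of the border-associated macrophage and 3 of the homeostatic microglia genes had one. Medians in intact and kinase-dead mice were 0.27 and 0.01 for homeostatic microglia, 0.45 and 0.08 for complement and 0.37 and 0.12 for Fc gamma receptor genes. They were 0.18 and 0.08 for disease-associated microglia and 0.31 and 0.16 for border-associated macrophage genes.

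Among genes of oligodendrocytes, which form myelin, Nkx6-2, a homeobox transcription factor of oligodendrocytes, had 2.94 to 4.12 CPM in controls and 4.53, 6.19 and 7.76 CPM as lowest, median and highest lupus-background values, a log2 fold change of 0.77 ± 0.13 (SE) with no overlap. Of 12 oligodendrocyte and myelin markers, 7 were higher and 0 lower at an unadjusted p below 0.05, with a median of 0.27, 0.30 in intact and 0.32 in kinase-dead mice. The list summed to 6104, 4540, 5024 and 4082 CPM in MRL, 4712 to 6063 in MRL-IRAK4-KD and 3413 to 4589 CPM in the controls, so that MRL replicates 2 and 4 lay within the control range. The myelin genes Mbp and Mog gave 0.26 ± 0.11 and 0.39 ± 0.15. Astrocyte genes gave 2 higher of 8, the metabolic genes Aldh1l1 (0.30 ± 0.08) and Aldoc (0.25 ± 0.11), with 0.04 ± 0.17 for Gfap, -0.15 ± 0.15 for the water channel Aqp4 and 0.01 ± 0.15 for the glutamate transporter Slc1a2. Of 12 reactive astrocyte genes 1 was higher, Aspg (0.33 ± 0.13), with 0.17 ± 0.12 for Vim and 0.11 ± 0.19 for Serpina3n.

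Signalling lists held between 1 and 4 genes each at an unadjusted p below 0.05. Of 11 Irak and Myddosome genes 1 was higher, Irak3 with 0.43 ± 0.18 (SE), while Irak1 and Irak2 gave 0.14 ± 0.11 and 0.07 ± 0.17. Of 14 NF-kappa-B genes 3 were higher, Rela (0.22 ± 0.08) and the inhibitors Nfkbia (0.51 ± 0.23) and Nfkbib (0.31 ± 0.12), and the first members Nfkb1, Nfkb2 and Rel gave 0.04 ± 0.07, 0.21 ± 0.15 and 0.07 ± 0.20. The medians of both lists, 0.05 and 0.03, were below 0 with library-size scaling. Of 16 JAK-STAT genes 4 were higher and 0 lower, with a median of 0.18. Jak3 gave 0.41 ± 0.13, Stat4 1.22 ± 0.38, Stat5a 0.33 ± 0.13 and the feedback inhibitor Cish 0.54 ± 0.15. Jak1 and Jak2 gave 0.02 ± 0.08 and 0.01 ± 0.17. The JAK-STAT median was 0.27 in intact and 0.06 in kinase-dead mice, the latter 0.11 without MRL-IRAK4-KD replicate 4. These genes summed to 446 to 494 CPM in MRL, 424 to 445 in MRL-IRAK4-KD and 426 to 441 CPM in the controls. Of 28 chemokine ligands 2 were higher, Ccl2 with 0.89 ± 0.40 and Ccl6 with 0.52 ± 0.21, beside 0.13 ± 0.41 for Ccl3 and 0.63 ± 0.94 for Ccl4. Ccl2 lay between 0.0346 and 0.2 CPM in every library, and its log2 fold change was 1.67 in intact and -0.02 in kinase-dead mice. Of 14 death receptor genes 1 was higher, the initiator caspase Casp8 with 0.30 ± 0.12, beside -0.11 ± 0.31 for Fasl and 0.21 ± 0.12 for the adaptor Fadd. At an unadjusted p below 0.05 stood 7.14% of chemokine, 7.14% of death receptor and 9.09% of Irak and Myddosome genes. These shares were near the 7.87% of all genes, while JAK-STAT and NF-kappa-B genes had larger shares at that p, 25% and 21.4%. Without MRL-IRAK4-KD replicate 4, 8 of 16 JAK-STAT, 3 of 14 death receptor and 2 of 11 Irak and Myddosome genes had such a p. Over all genes 5294 of 37453 then had one. Without MRL replicate 4, 1 chemokine gene and 0 genes of the death receptor and Irak lists had one.

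Lymphocyte genes were near the lower limit of the libraries, with some exceptions. Immunoglobulin constant regions of the IgG classes mark class-switched B cells and plasma cells. Ighg1 had 0.0271 to 1.74 CPM in the lupus-background libraries and 0 to 0.0243 CPM in the controls, with 3 of the 5 controls at 0 counts and no overlap. Its fitted log2 fold change, 5.30 ± 1.24 (SE), depends on those counts of 0 and is no estimate of size. Ighg2c had 0.168 to 0.535 CPM in controls and 0.268, 0.927 and 2.53 CPM as lowest, median and highest lupus-background values, a log2 fold change of 1.74 ± 0.42. These were the 2 genes of 15 B and plasma cell markers that were higher, and Jchain was lower, -0.59 ± 0.27, with Cd79a and Cd79b at 0.35 ± 0.33 and 0.08 ± 0.36. The list median was 0.08, and 0.26 without MRL replicate 4. Its sum ran from 18.1 to 31.7 CPM in lupus background and from 17.2 to 37.8 CPM in controls, so the groups overlapped. Of 18 T cell and cytotoxic markers 3 were higher and 0 lower, Cd4 with 0.97 ± 0.30, Trbc1 with 1.60 ± 0.59 and Trbc2 with 1.74 ± 0.61. The T cell receptor genes Cd3e, Cd3d and Cd3g gave 0.59 ± 0.43, -0.17 ± 0.75 and 0.14 ± 0.58, and none of the 3 exceeded 0.26 CPM in any of the 13 libraries. The T cell median of 0.54 was 0.32 without MRL-IRAK4-KD replicate 4 and also without MRL replicate 4. It was 0.16 in intact and 0.69 in kinase-dead mice, the latter 0.65 without MRL-IRAK4-KD replicate 4.

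Neuronal and metabolic lists were read next. Of 22 glutamate receptor genes 2 were higher, the NMDA receptor subunits Grin1, 0.37 ± 0.11 (SE), and Grin2c, 0.16 ± 0.07, and the AMPA receptor genes Gria1, Gria2 and Gria3 gave -0.15 ± 0.12, -0.02 ± 0.09 and -0.07 ± 0.16. Of 18 GABA and interneuron genes 6 were higher and 0 lower, among them the extrasynaptic receptor subunit Gabrd, 0.61 ± 0.16, and the transporter Slc32a1, 0.25 ± 0.10, while Gad1 and Gad2 gave -0.01 ± 0.09 and -0.05 ± 0.12. Gabra2, 0.43 ± 0.16, was also among the 6. The list median was 0.23 in intact and -0.0013 in kinase-dead mice, the latter 0.07 without MRL-IRAK4-KD replicate 4. Of 15 immediate early genes, induced by neuronal activity, 3 were higher, Junb (0.69 ± 0.30), Egr4 (1.00 ± 0.33) and Ier2 (0.69 ± 0.31), with 0.31 ± 0.53 for Fos, 0.29 ± 0.37 for Fosb and -0.07 ± 0.19 for Fosl2. Fos reached 86.0 CPM in MRL replicate 2 and lay between 2.98 and 34.4 CPM in the other lupus-background libraries. The list summed to 1699 and 1081 CPM in MRL replicates 2 and 3, to 584 and 603 in the other MRL, 295 to 537 in MRL-IRAK4-KD and 441 to 721 CPM in the controls. Its median was 0.84 in intact and -0.19 in kinase-dead mice, the latter 0.0008 without MRL-IRAK4-KD replicate 4. Of 13 protein genes of the mitochondrial genome 6 were higher and all 13 had a positive log2 fold change, with a median of 0.20 and 0.21 ± 0.08, 0.25 ± 0.08 and 0.31 ± 0.19 for mt-Nd1, mt-Nd2 and mt-Nd3. Of 15 glucocorticoid response genes 3 were higher, Sgk1 (0.49 ± 0.20), Cdkn1a (0.81 ± 0.35) and Plin4 (1.21 ± 0.50), with 0.13 ± 0.08 for the receptor Nr3c1, -0.10 ± 0.20 for Nr3c2 and -0.06 ± 0.15 for Fkbp5. Without MRL-IRAK4-KD replicate 4, 11 mitochondrial, 5 glucocorticoid response, 4 glutamate receptor and 2 immediate early genes had an unadjusted p below 0.05. Over all genes 5294 of 37453 then had one.

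**Figure D4:**
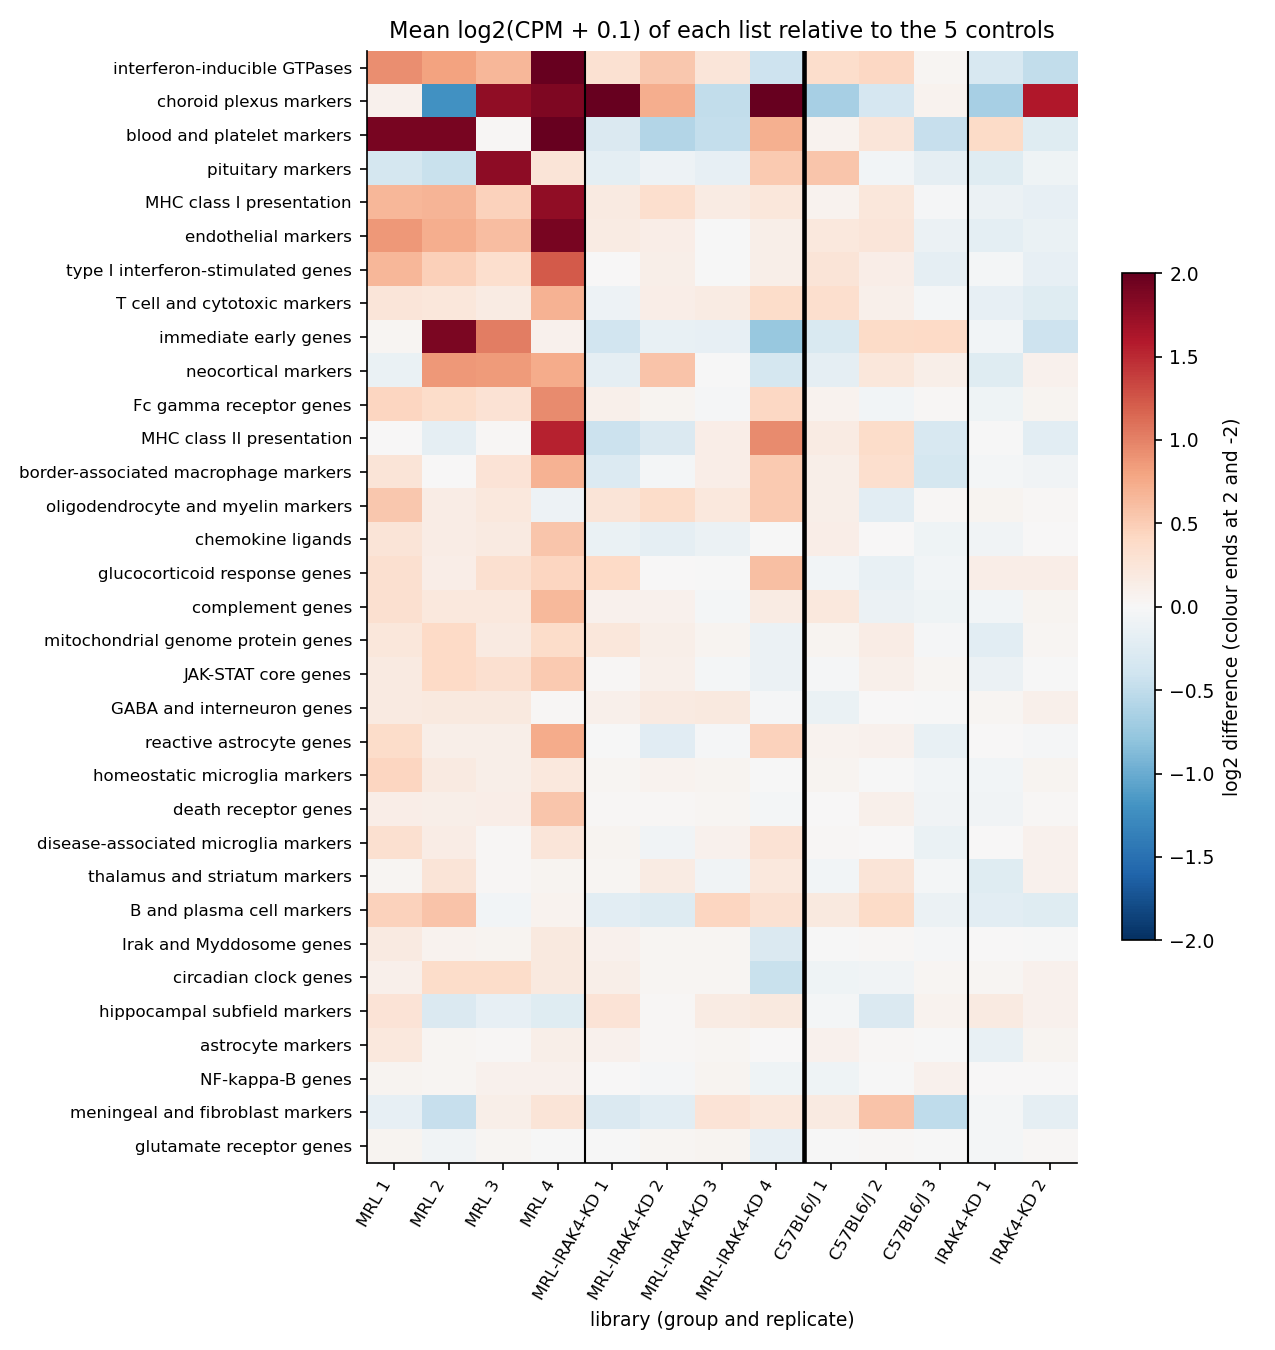
Rows are gene lists and columns are the 13 libraries, with colour for the mean log2(CPM + 0.1) of the list relative to the 5 controls and the thick line between lupus background and control. MRL replicate 4 was the highest library for the GTPase, MHC class I and endothelial lists, and the choroid plexus row varied within every group.

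Marker lists of neighbouring tissues were read as well. Choroid plexus genes had a median of 1.25 with 2 of 12 higher at an unadjusted p below 0.05, Enpp2 (1.01 ± 0.41) and F5 (1.43 ± 0.63), and 0 without MRL-IRAK4-KD replicate 4 or without MRL replicate 4. Their sum ran from 246 to 8581 CPM in lupus background and from 281 to 1999 CPM in controls, so the groups overlapped. The transthyretin gene Ttr gave 1.84 ± 1.01 (SE), Kl 0.50 ± 0.41 and Clic6 0.95 ± 0.53. Of 12 pituitary markers 0 had an unadjusted p below 0.05, with 1.91 ± 1.69 for Prl, 3.00 ± 1.83 for Gh and 0.93 ± 0.48 for Pomc. The mean log2(CPM + 0.1) of the pituitary list relative to the controls was 1.79 in MRL replicate 3. In the other libraries it lay between -0.45 and 0.56. Of 12 meningeal and fibroblast markers 1 was lower, Dcn with -0.59 ± 0.22, and Col1a1, Col1a2 and Col3a1 gave -0.22 ± 0.17, -0.11 ± 0.21 and -0.45 ± 0.27. Neocortical genes were 2 higher of 10, Rspo1 (1.71 ± 0.58) and Lamp5 (0.82 ± 0.28), with 0.51 ± 0.28 for Cux2 and 0.19 ± 0.18 for Rorb. They summed to 521, 457 and 441 CPM in MRL replicates 2 to 4, against 290 CPM in MRL replicate 1, 242 to 389 in MRL-IRAK4-KD and 271 to 363 CPM in the controls. The median was 0.49 in intact and 0.01 in kinase-dead mice, the latter 0.13 without MRL-IRAK4-KD replicate 4. In the same MRL replicates 2 to 4 the hippocampal subfield markers summed to 1008, 1116 and 1060 CPM, against 1352 CPM in MRL replicate 1, 1177 to 1409 in MRL-IRAK4-KD and 1098 to 1292 CPM in the controls. Thalamic and striatal genes were 2 higher and 1 lower of 14, Adora2a (0.40 ± 0.17), Ppp1r1b (0.58 ± 0.16) and Lhx9 (-0.48 ± 0.15), with -0.03 ± 0.25 for Tcf7l2 and 0.35 ± 0.55 for Gbx2. Hippocampal subfield markers gave 0 of 16, with -0.19 ± 0.20 for Prox1, 0.06 ± 0.24 for C1ql2 and 0.02 ± 0.25 for Dsp. The part of these tissues in the other values was not tested.

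Because the lpr allele is carried on a segment of donor chromosome, genes were also read by their distance from Fas. Of the 36 tested genes that start within 1 Mb of Fas, 5 had an unadjusted p below 0.05 (13.9%), of 133 within 5 Mb 13 (9.77%), of 283 within 10 Mb 20 (7.07%) and of 505 within 20 Mb 32 (6.34%), beside 7.87% over all genes. Lupus-background and control values did not overlap for 4 of the 133 genes within 5 Mb (3.01%), beside 0.578% over all genes. Rpp30 (ENSMUSG00000024800.8, chromosome 19, 36083716 to 36104777), a subunit of RNase P, starts 1.79 Mb from Fas. It had 8.80 to 9.82 CPM in controls and 10.8, 13 and 13.9 CPM as lowest, median and highest lupus-background values, a log2 fold change of 0.42 ± 0.07 (SE), with 0.39 in intact and 0.46 in kinase-dead mice. Gm26902 (ENSMUSG00000097558.1, chromosome 19, 34474808 to 34481546) starts 0.184 Mb from Fas and had 0.821 to 1.5 CPM in controls and 0.164, 0.376 and 0.718 CPM in lupus background, a log2 fold change of -1.45 ± 0.24. It overlaps the cholesterol 25-hydroxylase gene Ch25h on the opposite strand, and whether the counting used strand is not given in the sources used here.

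4 further genes of this interval were singled out after their values were seen. Ifit3 lay 0.293 Mb from Fas with 12.8, 8.42 and 5.97 CPM in C57BL6/J, 8.04 and 7.02 in IRAK4-KD, 4.63 to 9.10 in MRL and 2.69 to 3.55 in MRL-IRAK4-KD. The MRL values overlapped the controls and the MRL-IRAK4-KD values lay below all of them. The lysosomal lipase gene Lipa, 0.202 Mb away, had 18.9 to 22.1 CPM in controls and 22.2, 25.8 and 29.5 CPM in lupus background, a log2 fold change of 0.34 ± 0.09 (SE). The retinoic acid hydroxylase gene Cyp26a1, 3.41 Mb away, had 0.321 to 0.792 CPM in controls and 0.0289 to 0.214 CPM in lupus background, a log2 fold change of -2.27 ± 0.46. The mitotic kinesin gene Kif11, 3.09 Mb away, gave -0.55 ± 0.18. None of the 4 passed the adjusted test in edgeR on 13 libraries, their adjusted p lying between 0.334 and 0.508.

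**Figure D5:**
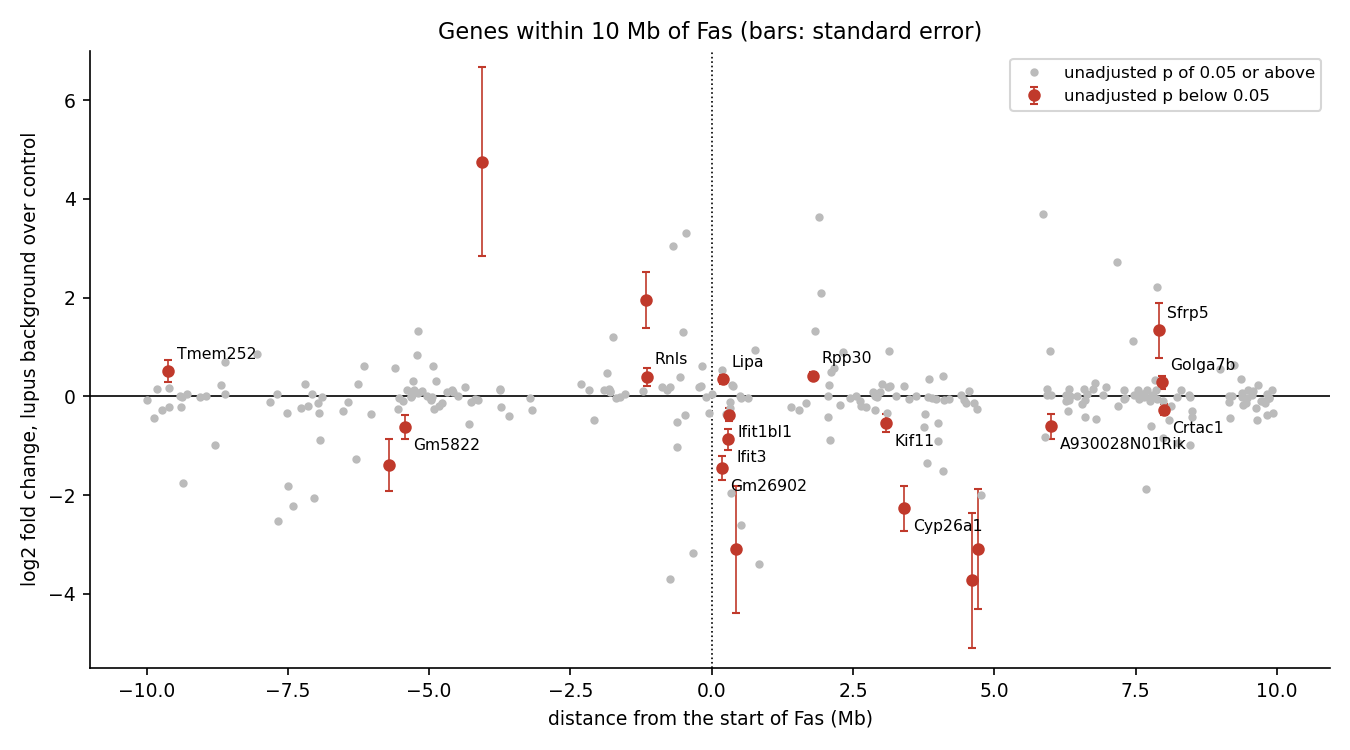
Each point is a tested gene placed by the distance of its start from the start of Fas in Mb on the x axis, with its log2 fold change on the y axis. Genes with an unadjusted p below 0.05 are red with their standard error, and those of mean CPM 0.2 or more are named, with Gm26902 at -1.45, Ifit3 at -0.87 and Lipa at 0.34 beside Fas.

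The remaining genes of the ranking lie elsewhere in the genome. Sun2, a nuclear envelope protein of the complex that links nucleus and cytoskeleton, had 20.7 to 22.7 CPM in controls and 24.9, 27.2 and 34.8 CPM as lowest, median and highest lupus-background values, a log2 fold change of 0.39 ± 0.07 (SE) without overlap. Among the lower genes, Kctd6, an adaptor of a Cul3 ubiquitin ligase, had 56.0 to 66.3 CPM in controls and 43.9, 47.9 and 55.4 CPM in lupus background, a log2 fold change of -0.33 ± 0.06 without overlap. The kinetochore gene Knstrn gave -0.65 ± 0.12 with 2.14 to 3.69 CPM in controls and 1.56 to 2.07 CPM in lupus background, and the fibroblast growth factor homologue Fgf11 gave -0.46 ± 0.09 with overlap. The antisense gene A230077H06Rik gave -0.51 ± 0.09 and Gm44164 gave -1.17 ± 0.22. Both overlap other genes and are uncertain.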

How the data were processed

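Hippocampal RNA of 14 mice was sequenced, and the authors deposited a matrix of gene counts, not normalized, and one of transcript counts. The submitters' processing notes name HISAT2 2.1.0, SAMtools 1.9, StringTie 2.1.0, R 4.0.5 and DESeq2 1.30.1. The build is mm10, and whether strand was used is not given in the sources used here. The kit is named differently in the labels and in the study's methods. Rows other than Ensembl genes (0.0254 to 0.188% of counts) were left out. Libraries held 1.40 to 2.08 counts per read, so counts are not single molecules, and limits from counts of 0 cover counting error only.

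Genes with at least 10 counts over 13 libraries were fitted with edgeR 4.0.16 (TMM, robust quasi-likelihood, R 4.3.3) on lupus background with IRAK4 status as covariate, and p-values were adjusted by Benjamini-Hochberg at 0.05. Exact 2-sided permutation tests on log2(CPM + 0.1) permuted labels within IRAK4 states (35 by 15 arrangements). Python 3.11.15 was used for summaries. The fit was tested on simulated data. Named genes are Fas, Irak4, the 20 genes of smallest p with a mean of at least 0.5 CPM (fewer than 20 genes being called) and the first 3 of each list (a few members are not reported here), and others are named as chosen after their values were seen. The 34 gene lists and the members were chosen with earlier results of these data known. IRAK4-KD replicate 3 was left out because of its Fas transcripts. Alternatives were DESeq2 1.42.0, limma-voom (limma 3.58.1), other scalings and filters, no covariate, a replicate block, the left-out library put back, omission of the Fas region and of each library in turn. No pair of libraries was identical.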

Additional observations from a re-analysis of the deposited data

Results flagged for a closer look

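In groups of 4 libraries, the gap between the most extreme library and its nearest neighbour was compared with the range of the group. Of 110 such tests 14 stood out, where chance gives about 1 in 20, and all 14 came from 2 libraries. In MRL replicate 4, Irf7 was at 6.01 CPM against 2.73 to 3.22 in the other MRL libraries, Flt1 at 73.7 against 42.6 to 47.0 and Xdh at 18.7 against 5.76 to 7.40. Its summed level was 466 CPM for the interferon-inducible GTPases, against 60.3 to 71.9, 577 for MHC class I presentation, against 275 to 322, 75.5 for MHC class II, against 24.4 to 26.3, and 366 for the endothelial markers, against 199 to 225.

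MRL-IRAK4-KD replicate 4 was extreme in other lists. Its summed level was 385 CPM for complement, against 234 to 251 in the other MRL-IRAK4-KD libraries, 71.1 for the Fc gamma receptors, against 39.4 to 44.3, 4463 for the disease-associated microglia genes, against 2024 to 2345, and 1906 for the glucocorticoid response genes, against 930 to 1080. Pituitary markers summed to 748 CPM, against 640 to 651, although their mean log2(CPM + 0.1) was highest in MRL replicate 3. Blood markers summed to 198 CPM in MRL-IRAK4-KD replicate 4, against 55.0 to 60. The Irak and Myddosome genes were lowest there, at 281 CPM against 374 to 381. Such sums weigh the most abundant genes, and Apoe alone had a mean of 1363 CPM. By mean log2(CPM + 0.1) relative to the controls, the disease-associated microglia list was at 0.287 in this library, against -0.0721 to 0.0814. The complement list was at 0.162, against -0.0367 to 0.0870.

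The mitochondrial tRNA gene mt-Tg was the 1 gene whose background effect differed between the IRAK4 states in edgeR's interaction test, with a log2 difference of 3.73 ± 0.40 (SE) and an adjusted p of 0.0182. It was at 0.740 and 0.819 CPM in the 2 IRAK4-KD libraries used, at 11.9, 9.48 and 12.5 CPM in C57BL6/J and between 7.55 and 14.6 CPM in the lupus background, and IRAK4-KD replicate 3, outside the fit, was at 0.746. In that left-out library the decay-targeted Fas transcript had 514 counts, where the controls had at most 7.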

How the results depend on the processing

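The number of genes called depended on the tool and on 1 library. DESeq2 called 294 genes, limma-voom 18, and the average over IRAK4 states in an interaction model 3. Leaving out each library in turn gave between 0 and 30 calls, and every one of the 30 calls came from leaving out MRL-IRAK4-KD replicate 4. At an unadjusted p below 0.05, limma-voom gave 5518 genes, a mean of at least 1 CPM 1295 (of 16116 tested), omission of MRL replicate 3 with MRL-IRAK4-KD replicate 4 (chosen after seeing the data) 4592, and each library left out in turn 2114 to 5294. The interaction called 0 to 11 genes with each library left out. In intact mice, 6 genes were called with no filter on low counts and 0 to 203 with each library left out, 203 without MRL replicate 1. In kinase-dead mice, 6 were called with IRAK4-KD replicate 3 put back and 0 to 36 with each library left out. Ccl2 turned to a log2 fold change of -0.0174 in kinase-dead mice. The cause of these differences was not tested. Among the named genes' log2 fold changes, 3304 values were classed as unchanged, 46 became significant and 1 reversed. The unchanged class is no count of kept signs. Of 15 immediate early genes, 13 were positive over all 13 libraries and 4 in kinase-dead mice.

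Same-numbered libraries did not deviate together (16 pairs, r from -0.25 to 0.30, median 0.05, 5 over 0.1), and 5 libraries correlated best with their own number. With the replicate number as a block, 0 genes were called and 2496 had an unadjusted p below 0.05. The median standard error of a log2 fold change among genes of at least 1 CPM was 0.131, and 2 IRAK4-KD libraries limit the kinase-dead comparison.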

Other observations

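The 30 genes that edgeR called without MRL-IRAK4-KD replicate 4 are named after their values were seen, and 19 of them were higher. They include further genes of vessels and pericytes. Cd34, an endothelial and progenitor surface protein, lay at 38.7, 54.3 and 39.1 CPM in the other MRL-IRAK4-KD libraries, at 23.1 in replicate 4 and at 28.8 to 37.5 CPM in the controls. The pericyte gene Rgs5 lay at 77.3, 87.3 and 70.0 CPM, at 32.7 in replicate 4 and at 55.8 to 80.0 CPM in the controls. Sun1, the partner of Sun2 in the nuclear envelope, lay at 76.7, 74.1 and 69.5 CPM, at 21.1 in replicate 4 and at 59.4 to 67.3 CPM in the controls. Among the lower genes, the mitochondrial adenylate kinase Ak4 lay at 67.0, 58.0 and 65.0 CPM, at 23.3 in replicate 4 and at 75.1 to 81.6 CPM in the controls, and its groups did not overlap with or without that library.

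Gabra2, a GABA-A receptor subunit gene, lay at 251 to 300 CPM in MRL, 300 to 550 in MRL-IRAK4-KD, 153 to 174 in C57BL6/J and 337 to 411 CPM in IRAK4-KD. The 2 control groups did not overlap, and the log2 fold change was 0.75 in intact and 0.03 in kinase-dead mice, with an interaction that edgeR did not call. Thalamic and striatal markers summed to 760 CPM in IRAK4-KD replicate 3, the library left out, and to 240 to 328 CPM in the other 13.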
